A study of Mus musculus with 2 samples.

Results

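The Ihh region described here is the stretch of mouse chromosome 1 from 74940000 to 75130000 (190 kb, build mm9) that holds Indian hedgehog (Ihh) and the flank on the side of the neighbouring gene Nhej1. Its members are all called peaks of either transcription factor whose centre lies in that stretch: 15 Sox6 peaks out of 79107, and 3 Sox9 peaks out of 23865. Position alone chose the peaks and no measured value was used, though the region itself was chosen with earlier results of these data known. Sox6 was mapped by chromatin immunoprecipitation with sequencing (ChIP-seq) in primary rib chondrocytes of untreated wild-type ICR mice at postnatal day 1, in 1 sample, beside 1 sample of input DNA made without antibody from the same kind of cells. The dissection took in the proliferative and prehypertrophic zones of the rib and left out mature hypertrophic cartilage. The Sox9 peaks come from 2 earlier samples of mouse primary rib chondrocytes, re-analysed by the authors with the peak calling used for Sox6, and for those mice neither strain nor age is given in the sources used here. There is 1 list per factor, so no value below has a replicate error or a p-value. The lists give positions without heights, read counts or scores, so depth is unknown, no peak could be set against the input, and the labelled cell type could not be checked against its markers.

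Ihh is a secreted ligand that prehypertrophic chondrocytes of the growth plate produce. It binds Patched, which releases Smoothened and activates the GLI factors, and through parathyroid hormone-related protein it holds neighbouring chondrocytes in proliferation and delays their hypertrophy. SOX9 is the HMG-box factor needed for cartilage formation, and SOX6, a SOXD protein, cooperates with it on cartilage genes. Nhej1 encodes XLF, a factor of DNA repair by non-homologous end joining. Regulatory sequence for Ihh is known in mouse from introns of Nhej1, and the series is titled for an enhancer of Ihh in chondrocytes. Where that enhancer lies is not given in these sources, so none of the peaks below was matched to it.

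Distances are counted from an approximate start of Ihh at 74998000, with its other end near 74992000 (mm9). Ihh is on the minus strand, so higher coordinates are upstream. In the gene order of RefSeq (GRCm38.p6) the next gene upstream is Nhej1, followed by Slc23a3, and the next gene downstream is Cfap65. No mm9 annotation was used here, so whether a peak lies in an exon, an intron or between genes is not stated.

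The sequence before the start of Ihh is shown because neither list holds a peak at it: the nearest is a Sox6 peak about 7 kb upstream. These are the 250 bases before the start in RefSeq's GRCm38.p6 (chr1:74951673-74951922, minus strand), and capitals mark a match to ACAAT, a core of the DNA bound by SOX factors.
Ihh: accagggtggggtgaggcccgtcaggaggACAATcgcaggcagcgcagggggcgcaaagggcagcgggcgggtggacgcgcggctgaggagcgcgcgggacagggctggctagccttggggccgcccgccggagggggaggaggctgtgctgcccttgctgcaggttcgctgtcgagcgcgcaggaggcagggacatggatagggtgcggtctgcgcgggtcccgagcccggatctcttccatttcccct
The stretch is 72% G and C, more than in 93.1% of the 32851 promoter stretches of the same length in RefSeq's table, whose median was 52.4%. ACAAT or its reverse complement occurred 1 time, beginning 221 bases before the start, and 27.7% of all the stretches hold at least 1 match. ACAAAG, another form, which cannot match at the same position, was found on neither strand, and 16.5% of the stretches hold it. These matches describe letters only.

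Most of the called sites lay upstream of Ihh, on the Nhej1 side. The Sox6 list had 12 peaks in the 132 kb upstream of the gene, none in the 6 kb of the gene itself and 3 in the 52 kb downstream. All 3 Sox9 peaks lay upstream, with none in the gene and none downstream. Per length this came to 90.9 Sox6 peaks per Mb upstream and 57.7 downstream, and to 22.7 Sox9 peaks per Mb upstream. The downstream figure depends on where the edge lies, because another Sox6 peak was centred 0.229 kb outside it. With counts this small and 1 library a factor, the difference between the sides was not tested.

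**Figure D1:**
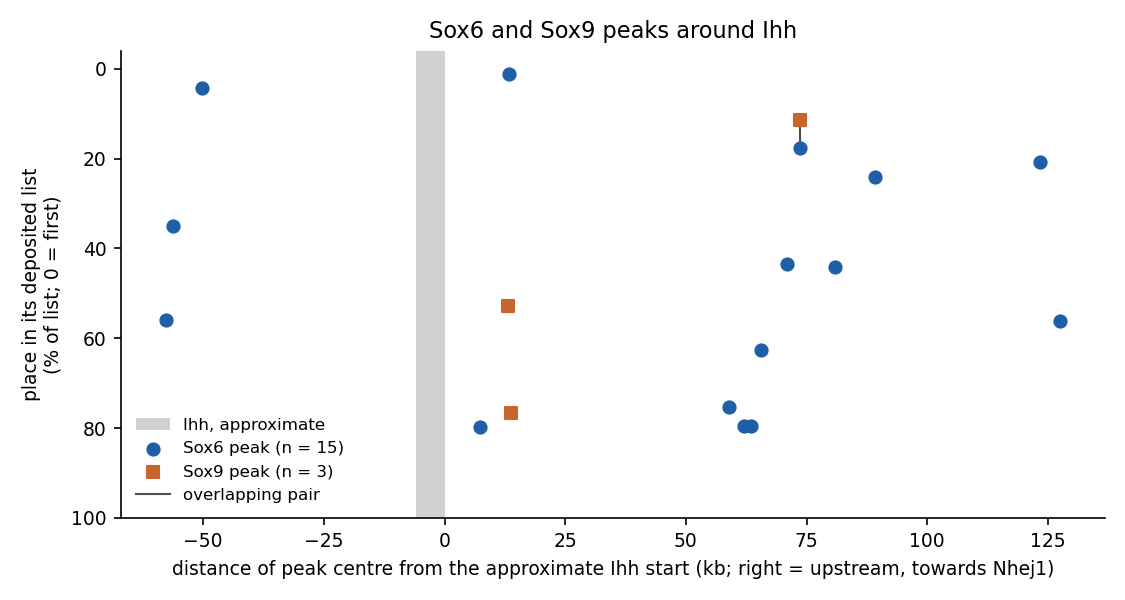
Peaks of the Ihh region, with the distance of each peak centre from the approximate start of Ihh on the horizontal axis (kb, upstream to the right) and the peak's place in its own deposited list on the vertical axis (percent of the list, first place at the top). Each of the 15 circles is a Sox6 peak and each of the 3 squares a Sox9 peak, the line joins the pair that overlaps, and the grey band is Ihh, where no peak was called.

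The site nearest to Ihh with both factors lay about 13 kb upstream, and its intervals did not touch. The Sox6 peak chr1:75011342-75011508 (167 bp) stood at place 964 of its list, within the first 1.22%, and was the earliest of the 15. One Sox9 peak, chr1:75011192-75011300 (109 bp, place 12621), ended 41 bp below it. Another, chr1:75011622-75012056 (435 bp, place 18304), began 113 bp above it. The Sox6 interval thus sat inside the 321 bp between the Sox9 intervals, and the centre of the nearer Sox9 peak was 179 bp from its own. Fragments in the Sox6 sample measured 100 to 600 bp. The gaps of 41 and 113 bp between called intervals lie below or near the lower end of that range. Whether they mark separate binding positions was not tested, and none are claimed here. The wider Sox9 peak was broader than 98.6% of its list, whereas the narrower one was broader than 12.5%. The places of the factors at this site differed: the Sox6 peak came early, and the Sox9 peaks stood at 52.9% and 76.7% of theirs.

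That arrangement of called intervals was uncommon in the lists as a whole. Of all 79107 Sox6 peaks, 311 (0.393%) overlapped no Sox9 peak but had one within 1000 bp on both sides, and of the first 1000 Sox6 peaks 9 did (0.9%). Among those first 1000 peaks, 841 overlapped a Sox9 peak, 92 had one beside them within 1000 bp without overlap, and 67 had none so near. Seen from the other list, 2234 neighbouring pairs of Sox9 peaks were separated by no more than 1000 bp. In 72 of them (3.22%) a Sox6 peak lay wholly between the pair while neither Sox9 peak was touched by one. In 1878 of the pairs a Sox6 peak overlapped at least 1 of the Sox9 peaks, so most pairs could not show this arrangement. These counts were chosen after the site had been seen and describe it only.

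About 74 kb upstream lay the only overlap of the factors in the region. The Sox6 peak chr1:75071602-75071694 (93 bp, place 13963, 17.7% of the list) shared 92 bp with the Sox9 peak chr1:75071544-75071693 (150 bp, place 2714, 11.4% of the list). The overlap covered 98.9% of the Sox6 interval and 61.3% of the Sox9 interval, and the centres were 29.5 bp apart. Over the 18302 Sox9 peaks of the whole list that overlap Sox6, the median distance to the nearest Sox6 centre was 40.5 bp. Here the Sox9 peak was the earliest-placed of the 3, while 2 other Sox6 peaks of the region stood earlier than its partner, at places 964 and 3311.

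**Figure D2:**
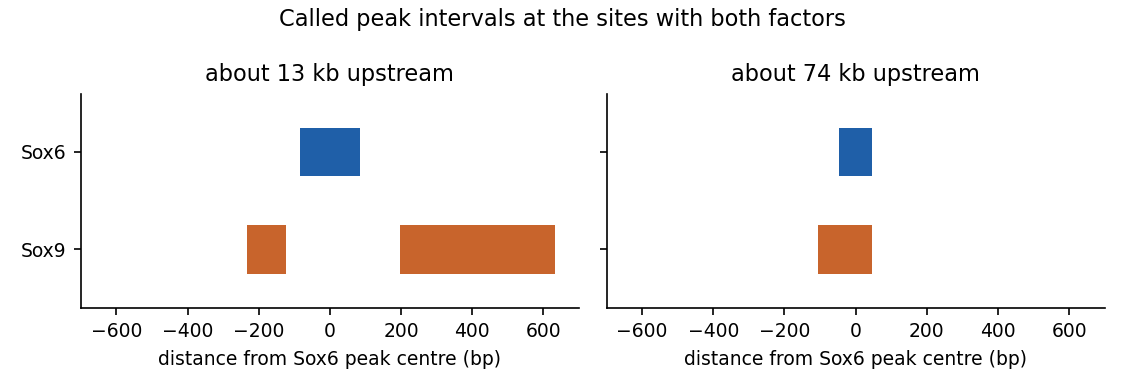
Called intervals of the Sox6 list (upper row) and the Sox9 list (lower row) at the sites about 13 kb and about 74 kb upstream of Ihh, in bp from the centre of the Sox6 peak. At the nearer site the Sox6 interval falls between 2 Sox9 intervals with gaps of 41 and 113 bp, and at the farther site the intervals share 92 bp.

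Counted over the region, 1 of 15 Sox6 peaks overlapped a Sox9 peak by at least 1 bp, which is 6.67% (95% exact Clopper-Pearson interval 0.169 to 31.9), beside 23.1% over the whole Sox6 list. Of the 3 Sox9 peaks 1 overlapped a Sox6 peak, or 33.3% (0.84 to 90.6), beside 76.7% over the whole Sox9 list. Both whole-list shares lie within these wide intervals, which cover counting error only. When edges up to 1000 bp apart were allowed, 2 of 15 Sox6 peaks (13.3%) and 3 of 3 Sox9 peaks (100%) had a counterpart, beside 32.3% and 90.8% of the whole lists. The other 13 Sox6 peaks lay 2534 to 70840 bp from the nearest Sox9 peak.

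The remaining upstream Sox6 peaks included 1 close to the gene and a run of 8 farther out. The peak nearest to the start of Ihh in either list was chr1:75005308-75005452 (145 bp), about 7 kb upstream at place 63023, which is 79.7% of the list, the last place among the 15. From about 59 to 89 kb upstream, 8 Sox6 peaks followed each other from 75056875 to 75087214, with neighbouring centres 1439 to 8373.5 bp apart. A run is taken here as successive Sox6 peaks with no step between centres above 10000 bp, a limit chosen after the data had been seen. With steps of at most 5000 bp the run of 8 broke into pieces of 4 and 2 peaks and 2 single peaks. The overlapped peak at place 13963 was the earliest of the run. Farther from Ihh came chr1:75078720-75078855 at place 34929 and chr1:75087108-75087214 at place 19008. On its Ihh side stood chr1:75068845-75069009 at place 34420 and, at 62.7% to 79.7% of the list, 4 peaks between 75056875 and 75063681. Runs of at least 8 made up 3.23% of the 35399 runs and single peaks of the Sox6 list, and they held 18.0% of its peaks.

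Between that run and the site about 13 kb upstream no peak of either list was called. The last pair of upstream Sox6 peaks, chr1:75121341-75121526 at place 16341 and chr1:75125408-75125533 at place 44409, lay about 123 and 127 kb from the start of Ihh, with no Sox9 peak nearer than 13719 bp. The next Sox6 peak outside, chr1:75137802-75137935, had its centre 7.87 kb beyond that edge, and the next Sox9 peak, chr1:75139253-75139362, 9.31 kb beyond it.

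Downstream of Ihh only Sox6 was called. Of the 3 peaks there, chr1:74947595-74947725 (131 bp), about 44 kb from the lower end of the gene, stood early in the list at place 3311 (4.19%), the second earliest of the region. The others, chr1:74941674-74941761 and chr1:74940200-74940351, stood at places 27693 and 44350. Each was at least 63466 bp from any Sox9 peak, and the nearest Sox9 peaks to them were those about 13 kb upstream of Ihh. A further Sox6 peak, chr1:74939714-74939828, was centred 0.229 kb outside the lower edge, so this run of 4 Sox6 peaks crosses the edge of the region.

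Ihh itself lay in a stretch without peaks. The Sox6 list had none between 74947725 and 75005308, a gap of 57.6 kb, and gaps at least as long made up 11.1% of the gaps between neighbouring Sox6 peaks, whose median was 7.65 kb. The Sox9 gap that holds the gene measured 148 kb and began outside the region, beside a median of 26.7 kb, and 14.7% of Sox9 gaps were at least as long. A given position falls in a long gap more often than the number of such gaps implies. These shares by number therefore do not show how unusual the gap at Ihh is. Absence from a list says that no peak was called there, and with no depth given it cannot be read as absence of binding.

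The Sox6 peaks of the region leaned narrow for their list. Of the 3 Sox9 peaks 1 was wide, and the others were narrower than the median of their list. The 15 Sox6 peaks were 86 to 186 bp wide with a median of 136 bp, beside 151 bp for the whole list, and the 3 Sox9 peaks were 109, 150 and 435 bp wide, beside a median of 183 bp. Their places were spread through the Sox6 list, from 1.22% to 79.7% with a median of 44.2%, and 8 of 15 stood in its first 50%. The order of the lists is not documented, and a place is given only as a place.

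Set beside windows of the same 190 kb laid end to end over all chromosomes, the region ranked above most windows for both factors, with counts far below the highest. The 15 Sox6 peaks exceeded the number in 88.5% of 13903 windows, equalled 1.48% and fell below 10.1%, with a median of 3 and a highest count of 99. The 3 Sox9 peaks exceeded 75.5% of windows, equalled 6.88% and fell below 17.7%, with a median of 0 and a highest count of 36. In the 206 windows that held 15 Sox6 peaks as the region does, the Sox9 count had a median of 4 (quartiles 3 and 6), and it was above 3 in 68.9% of them. A Sox6 peak placed earlier than 964 was found in 5.88% of windows and a Sox9 peak placed earlier than 2714 in 13.4%. Windows with more peaks tend to hold an earlier place by count alone, and windows of like count were not compared for this. The windows include sequence without genes or mappable reads, so these shares describe rank and give no probability.

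**Figure D3:**
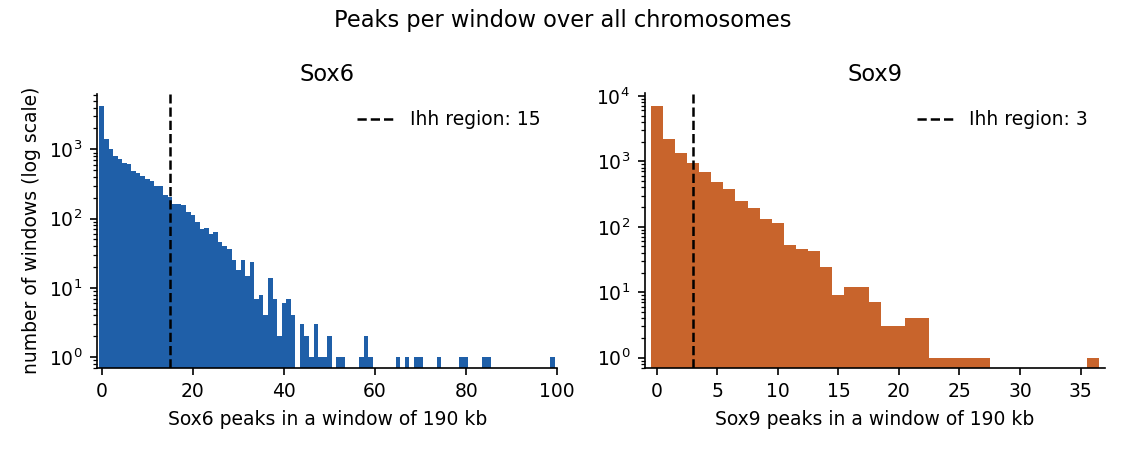
Number of 190 kb windows (log scale) by the number of Sox6 peaks (left) and Sox9 peaks (right) that they hold, over all chromosomes. The dashed line marks the Ihh region, with 15 Sox6 and 3 Sox9 peaks, above the count of most windows and far below the highest counts of 99 and 36.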

How the data were processed

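The authors deposited 1 list of called peaks per factor, each with chromosome, start and end in 3 columns and no header or other value. The positions are in bp on mm9, and Bowtie is named without a version, per the submitters' processing notes. No build is stated for the Sox9 list alone, and mm9 was assumed for it. The peak caller is not given in the sources used here. Of its threshold there is only an FDR mark on each list, with no level explained. The input DNA sample was not analysed here.

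Starts were counted from 0 in the files and are printed from 1. Peaks of different lists were shared where 1 bp or more was in common. Shares carry exact Clopper-Pearson intervals (95%), which treat peaks as independent. Windows were fixed and began at base 1 of each chromosome. Every peak of the region is accounted for, and those shared, earliest, nearest to Ihh or from the Sox9 list are given in full. The region and the quantities were chosen with earlier results of these data known. The approximate ends of Ihh in mm9 were given with the choice of region, rounded and not read from an annotation, so distances to the gene are approximate. Promoter sequence and gene order came from RefSeq (GRCm38.p6), and no coordinate was converted. The counting steps were tested on simulated peaks with Python 3.11.15, numpy 2.4.6 and scipy 1.17.1.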

Additional observations from a re-analysis of the deposited data

How the results depend on the processing

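No paired analysis was possible because each factor has 1 list and no test was run. The counts depend most on how much of each list is used. With the first 50% of each list the region held 8 Sox6 peaks and 1 Sox9 peak, of which 6 and 1 lay upstream. The share of Sox9 peaks with an overlap was then 100%, which is 1 of 1, beside 74.75% of all Sox9 peaks kept. For Sox6 it was 12.5% (1 of 8), beside 22.5% of all Sox6 peaks kept. With as many Sox6 peaks as the Sox9 list has, 5 Sox6 peaks remained in the region, 4 upstream and 1 downstream. Allowing a gap of up to 1000 bp raised the Sox9 share to 100% (3 of 3), beside 90.8% of the whole Sox9 list. Runs were defined after seeing the data, as were their alternatives: steps of up to 5000 bp gave 9 runs and single peaks in place of 4 and no run of 8, while steps of up to 25000 bp kept the run of 8. The other 26 of 36 alternatives stayed within 1.5 times the count or within the interval of the share, among them merged peaks, any overlap with the region, and every other choice of windows, where the region exceeded 83.5% to 90.1% of windows for Sox6 and 65.0% to 75.6% for Sox9. Some of those 26 could not move. The Sox9 list is not shortened when the Sox6 list is cut to its length, and a downstream Sox9 count of 0 stays 0 in any part. The intervals of the shares are wide, so a Sox6 share of 20% beside 6.67% and a Sox9 share of 66.7% beside 33.3% also stayed within them. The 20% is 1 of 5 Sox6 peaks, with that list cut to the length of the Sox9 list, where 49.9% of all kept Sox6 peaks overlapped. The 66.7% allowed centres within 250 bp, and 81.1% of the whole Sox9 list met that rule. Use of the first part of a list assumes that its order is a ranking.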

Other observations

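Of the 15 Sox6 peaks, 3 stood almost side by side in the deposited list, which as a whole is not sorted by position. The peaks chr1:75061377-75061501, chr1:75059931-75060069 and chr1:75005308-75005452 held places 63015, 63018 and 63023, so that 3 peaks spread over 56.1 kb fell within 9 places of 79107. This was looked at over the whole list after it had been seen here. In the last 10% of the Sox6 list, 19.7% of peaks had another peak of the same chromosome within 100 kb among the 8 places before or after, and 0.657% did in the first 10%. In the tenth of the list that holds the 3 peaks (70% to 80%) the share was 19.2%. In the Sox9 list it was 8.21% in the last 10% and 0.964% in the first 10%. Places late in a list are thus not independent of position in the genome, and why was not tested.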
